A study of Danio rerio with 18 samples.

Results

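The genes described here copy DNA and divide the cell. They are 58 of the 32520 genes in the count tables, found by matching 55 names to zebrafish gene symbols with upper and lower case ignored and a final a or b allowed to be missing. Of these, 44 belong to DNA replication, including nucleotide supply and the copying of chromatin, and 14 belong to mitosis. A pair of genes carries the symbol MCM6 and another pair RRM2, so their identifiers are given where it matters. The gene RRM2B entered through the rule on a final b, although that symbol names another subunit gene of ribonucleotide reductase. RNA was sequenced from dissected tissues of AB strain zebrafish (Danio rerio) in 18 libraries, 3 in each of 6 groups. Wild type fish were raised either conventionally (CV) or germ-free (GF), and the remaining fish were chd8-/-; each of these gave intestine, taken 5 days after fertilization, and kidney, taken at 7 days. The kidney of this fish also holds its blood-forming tissue. The chd8 gene encodes a chromatin remodeller, and the labels do not name the mutant allele.

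Eggs of one spawning were divided into GF and CV embryos. Only the GF embryos were held in antibiotic medium, washed with polyvinylpyrrolidone and hypochlorite and raised in sterile medium. The chd8-/- embryos came from other crosses, whose parents mated in circulating system water and not in autoclaved water, and their tissue went into Trizol before freezing. Genotype, rearing and handling therefore cannot be told apart in any comparison with chd8-/-. Tissue was pooled from several fish. For wild type the labels name 30 embryos in the intestine protocol and 50 in the kidney protocol, and for the mutant 40 and about 70, without saying whether these are per library. Nothing says that replicates came from separate clutches, so every p-value reflects library-to-library spread alone, which may be technical.

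Before a cell divides, the origin recognition complex, Cdc6 and Cdt1 load the MCM ring onto DNA, and Cdc45 and the GINS complex turn the ring into an active helicase. DNA polymerases held by the PCNA clamp then copy both strands while ribonucleotide reductase supplies nucleotides, and Dnmt1 and Uhrf1 copy DNA methylation. Mitosis follows under Cdk1 with its cyclins, the Aurora and Polo kinases and the spindle motors. Most of these genes are transcribed chiefly in cycling cells, which in the larval gut and kidney include epithelial and blood progenitors. In bulk tissue, fewer cycling cells and less RNA per cell cannot be told apart.

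Libraries held 26809112 to 36624972 counts in intestine and 27291597 to 31268453 in kidney. Levels below are in CPM, counts divided by library size and scaled with trimmed-mean factors over all 18 libraries, and are compared between libraries of the same gene, not between genes. CV libraries of the intestine carry the numbers of the germ-free table, since the same 3 libraries are numbered differently in the chd8-/- table. The targeted gene chd8 stood at 31.8, 34.3 and 41.3 CPM in chd8-/- intestine against 51.4 to 55.7 CPM in CV, with GF at 57.7 to 62.6 CPM. In kidney it stood at 30.2, 34.7 and 38.9 CPM in chd8-/- and 45.8 to 51.7 CPM in CV. The library labelled GF kidney replicate 2 held 33.4 CPM, within the chd8-/- range, and the other GF libraries 53.8 and 54.0 CPM. Whether that library is mislabelled was not tested. The log2 fold change of chd8 in chd8-/- against CV was −0.60 in intestine (edgeR adjusted p = 0.0292) and −0.55 in kidney (edgeR adjusted p = 0.468). Markers of enterocytes were lower in CV kidney than in CV intestine for 25 of 26 genes tested, and kidney tubule and podocyte markers were higher for 11 of 20 and lower for 5. Of all genes tested 19.8% were lower in CV kidney, and the share that was higher is not given here. Summed, the kidney markers were nevertheless lower in CV kidney (930 to 1245 CPM) than in CV intestine (1913 to 2585 CPM). The most abundant were cdh17 and podxl, and cdh17 was also in the enterocyte list. As a mean of log2 levels, with each gene centred over all 18 libraries, the kidney markers were higher in CV kidney. That mean was 0.15 to 0.25 in CV kidney and −0.61 to −0.23 in CV intestine. The kidney libraries also held markers of exocrine pancreas, whose 12 genes summed to 66171 to 79178 CPM in CV kidney and to 14491 to 25949 CPM in CV intestine. Skeletal muscle markers, led by myhz1.1 and actc1b, summed over 22 genes to 78889 to 127685 CPM in CV kidney and to 10754 to 15314 CPM in CV intestine.

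Summed over all 58 genes, the level was 1260, 902 and 1410 CPM in CV intestine, 1528, 1135 and 1386 CPM in GF intestine and 716, 659 and 678 CPM in chd8-/- intestine. All 3 chd8-/- libraries lay below all 6 wild type libraries. In kidney the sums were 649, 486 and 487 CPM in CV, 536, 568 and 512 CPM in GF and 680, 470 and 476 CPM in chd8-/-, and these 3 groups overlapped. CV replicate 2 was the lowest of the wild type intestine libraries, and replicate 1 was the highest of both CV and chd8-/- kidney.

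**Figure D1:**
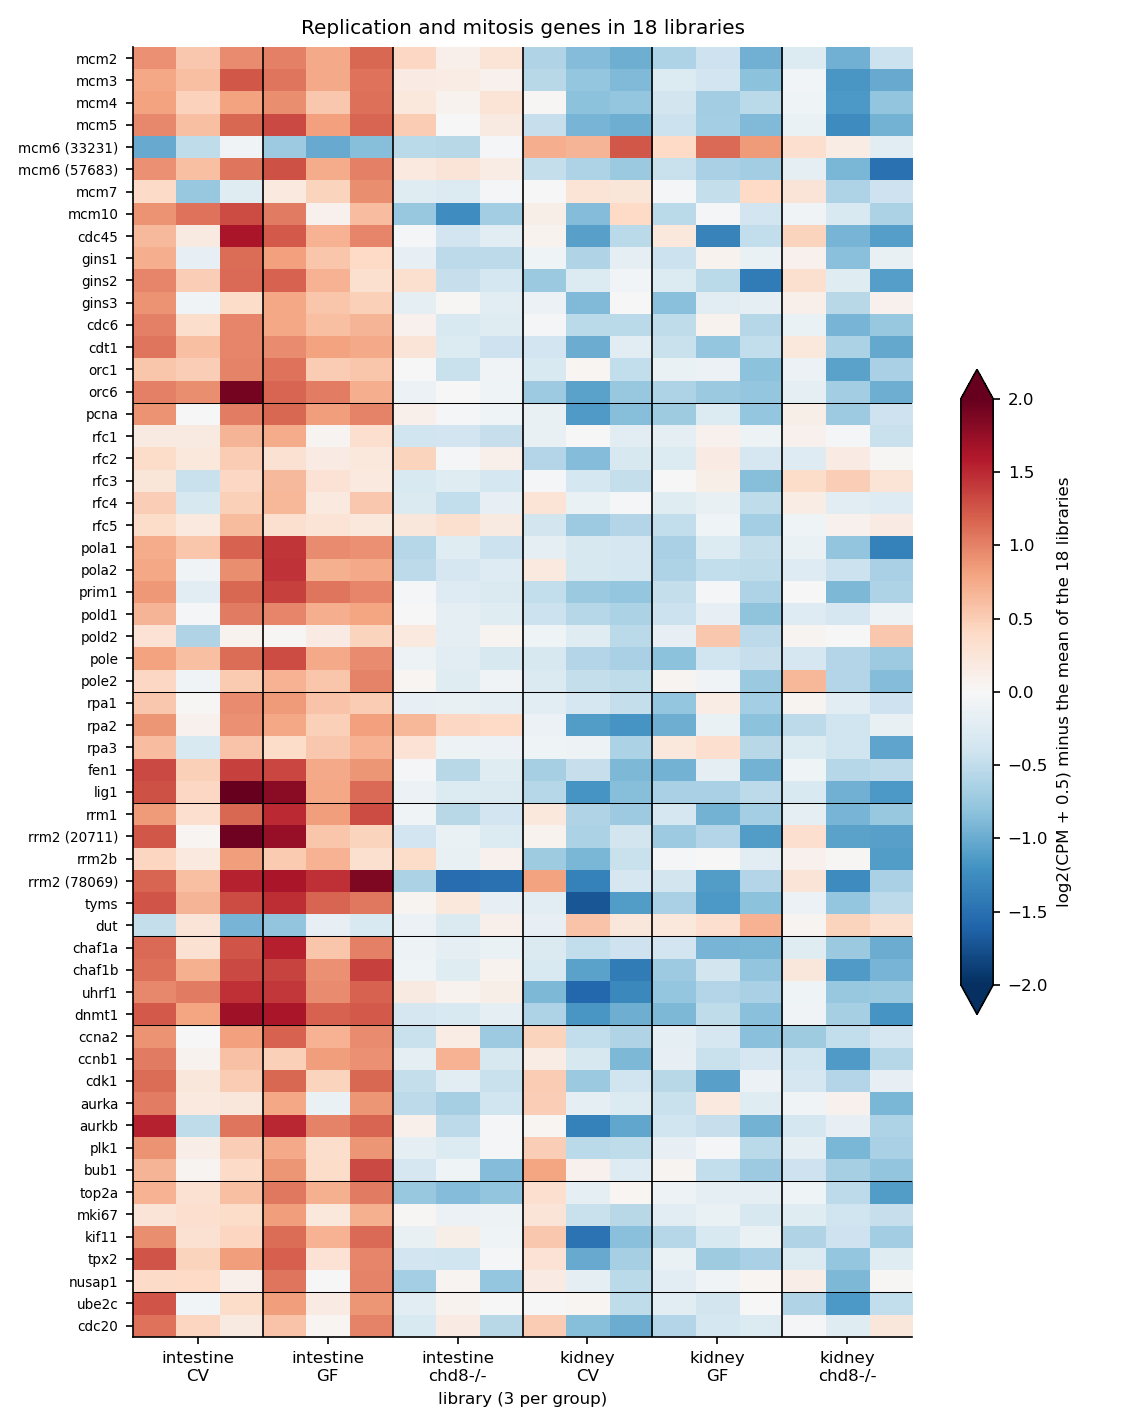
Each row is 1 of the 58 genes, grouped by role with lines between roles, and each column is 1 of the 18 libraries, 3 per group. Colour gives log2(CPM + 0.5) minus the gene's mean over the 18 libraries, from blue (lower) to red (higher); the wild type intestine columns are mostly red, the chd8-/- intestine columns pale and most kidney columns blue.

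As a mean of log2 levels over the 44 replication genes, with each gene centred on its mean over the 18 libraries, CV intestine stood at 0.69 ± 0.39 (SD, n = 3), GF intestine at 0.81 ± 0.20 and chd8-/- intestine at −0.15 ± 0.11. The kidney groups lay between −0.48 and −0.42. For the 14 mitosis genes the same mean was 0.58 ± 0.41 in CV intestine, 0.85 ± 0.36 in GF intestine and −0.30 ± 0.14 in chd8-/- intestine. The 3 chd8-/- libraries of the intestine thus lay closer together than the 3 CV libraries did in both classes. In kidney, CV replicate 1 had a mitosis mean of 0.40, against −0.64 to −0.60 in the other CV libraries.

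**Figure D2:**
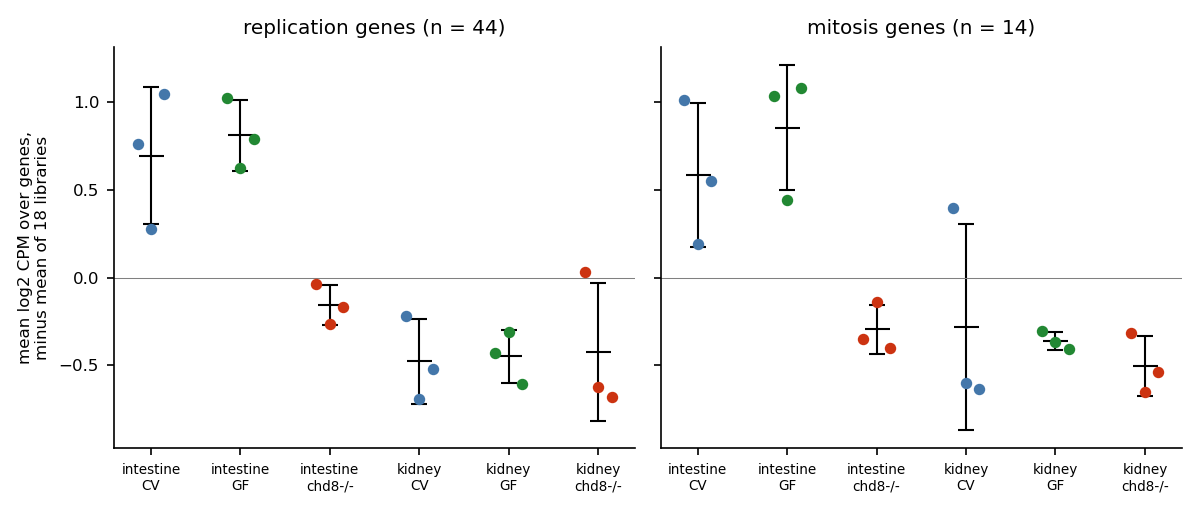
Each dot is 1 library and shows the mean of log2 CPM over the replication genes (left) or the mitosis genes (right), each gene centred on its mean over the 18 libraries; bars are the mean and SD of a group (n = 3). The chd8-/- intestine dots lie below all 6 wild type intestine dots in both panels.

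The comparison of chd8-/- with CV intestine asks which genes differ in the mutant gut. Replication and mitosis genes were lower in chd8-/- intestine. Of 57 genes tested, 30 fell, 0 rose and 27 did not pass (edgeR, adjusted p under 0.05 over all genes tested), while 5.19% of all genes tested fell and 3.98% rose. The log2 fold change was below 0 for 55 of the 57, with a median of −0.92, against −0.01 over all genes tested. The count was 26 of 43 for replication genes and 4 of 14 for mitosis genes, with medians of −0.92 and −0.91, and the difference between the classes was not tested. All 3 chd8-/- libraries lay below all 6 wild type intestine libraries for 35 of the 57 genes, a pattern shown by 9.18% of all genes tested (the opposite pattern by 10%).

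That count changed when single libraries were left out, which leaves fewer libraries for the test of every gene. Calls over all genes in these fits are not given here, so whether the changes are particular to the members cannot be told. The member count was 19 without CV replicate 1, 42 without CV replicate 2, 19 without CV replicate 3, and 15, 12 and 11 without chd8-/- replicate 1, 2 and 3. Of the 30 genes, 9 were lower in each of the 6 fits that left out 1 library and in all 13 alternatives tried, namely mcm10, pola1, pole, fen1, the rrm2 gene ENSDARG00000078069, chaf1b, uhrf1, dnmt1 and top2a. The calls of mcm2, mcm4, mcm5, cdc6, pola2, rpa1 and the rrm2 gene ENSDARG00000020711 held in only 1 of those 6 fits.

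Of the genes that load and form the helicase, 11 of 15 tested fell. mcm10, which joins the helicase to the polymerases, had the largest fold change of them. Its level was 3.44, 4.00 and 4.75 CPM in CV, 3.86, 1.74 and 2.74 CPM in GF and 0.758, 0.394 and 0.816 CPM in chd8-/- intestine, with no overlap between chd8-/- and the wild type libraries. The log2 fold change against CV was −2.65 (SE 0.34, adjusted p = 0.00104). orc6, a subunit of the origin recognition complex, was at 3.75, 3.53 and 7.49 CPM in CV, 4.25, 3.81 and 3.02 CPM in GF and 1.45, 1.61 and 1.5 CPM in chd8-/- (−1.72, SE 0.33, adjusted p = 0.00914). gins2, of the GINS complex, was at 3.48, 2.32 and 3.90 CPM in CV, 4.04, 2.75 and 2.01 CPM in GF and 2.02, 0.971 and 1.09 CPM in chd8-/- (−1.27, SE 0.35, adjusted p = 0.049). Its chd8-/- libraries lay below those of CV, but the highest of them reached the lowest GF library.

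The MCM ring has 6 subunits. Its genes mcm2, mcm3, mcm4, mcm5 and mcm6 (ENSDARG00000057683) fell by 0.56, 0.80, 0.53, 0.71 and 0.69 on the log2 scale. For mcm2 this meant 73.3, 56.9 and 75.6 CPM in CV, 78.4, 65.8 and 86.3 CPM in GF and 51.9, 41.8 and 47.0 CPM in chd8-/-, again without overlap. The calls of mcm2, mcm4 and mcm5 held in only 1 of the 6 fits that left out 1 library. The remaining subunit gene, mcm7, did not pass (−0.07, SE 0.24, adjusted p = 0.891). Its libraries held 63.8, 28.8 and 41.4 CPM in CV and 41.3, 40.3 and 47.4 CPM in chd8-/-, so the CV libraries spread on both sides of the mutant. The other mcm6 gene, ENSDARG00000033231, was at 0 to 0.476 CPM in the intestine and was too low to test there. Among the loading factors cdc6, cdt1 and orc1 fell by 1.06, 1.15 and 0.92. cdc45, gins1 and gins3 had values of −1.37, −1.25 and −0.78 and did not pass (adjusted p = 0.0526, 0.0624 and 0.223).

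Of the polymerase, clamp and clamp loader genes, 4 of 13 fell. These were pola1 and pola2 of the polymerase that starts each strand, pole of the leading-strand polymerase, and rfc1, the large subunit of the clamp loader. pola1 stood at 24.7, 21.6 and 33.5 CPM in CV, 40.0, 28.6 and 28.0 CPM in GF and 9.60, 12.2 and 10.7 CPM in chd8-/- (−1.31, SE 0.19, adjusted p = 0.00222), so that its highest mutant library lay well below the lowest wild type one. pole fell by 1.13, pola2 by 1.09 and rfc1 by 0.82. The clamp gene pcna was at 96.7, 51.7 and 106 CPM in CV, 115, 91.7 and 103 CPM in GF and 55.5, 50.8 and 48.3 CPM in chd8-/- (−0.73, SE 0.23, adjusted p = 0.0755). CV replicate 2 of pcna lay among the mutant libraries, and the gene did not pass. The small clamp loader subunits rfc2, rfc3, rfc4 and rfc5 had values of −0.20, −0.48, −0.62 and −0.19 and did not pass, nor did prim1 (−0.99), pold1 (−0.80), pold2 (0.05) and pole2 (−0.50).

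fen1 and lig1, whose enzymes trim and join the pieces of the lagging strand, both fell. fen1 was at 23.3, 12.6 and 23.9 CPM in CV, 23.5, 15.5 and 16.9 CPM in GF and 8.74, 5.97 and 7.55 CPM in chd8-/- (−1.44, SE 0.25, adjusted p = 0.0058). lig1 was at 39.0, 21.1 and 68.7 CPM in CV, 56.2, 27.3 and 35.2 CPM in GF and 14.5, 12.9 and 12.8 CPM in chd8-/- (−1.69, SE 0.36, adjusted p = 0.02), with a wide spread among wild type libraries and a narrow one in the mutant. Of the single-strand binding proteins, rpa1 fell by 0.74, while rpa2 (−0.20) and rpa3 (−0.38) did not pass.

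Nucleotide supply held both the largest fold change of the 57 genes and one of the 2 positive values. The rrm2 gene ENSDARG00000078069, for the small subunit of ribonucleotide reductase, was at 7.34, 4.84 and 9.68 CPM in CV, 10.4, 9.18 and 12.3 CPM in GF and 1.77, 0.728 and 0.748 CPM in chd8-/- (−2.77, SE 0.39, adjusted p = 0.0018). The other rrm2 gene, ENSDARG00000020711, was at 5.51, 2.12 and 9.28 CPM in CV, 7.98, 3.23 and 2.96 CPM in GF and 1.45, 1.82 and 1.60 CPM in chd8-/- (−1.81, SE 0.45, adjusted p = 0.0305). How reads shared by both copies were counted is not given in the sources used here, so the split between them is uncertain. rrm1, for the large subunit, was at 42.4, 29.4 and 52.1 CPM in CV, 65.8, 41.8 and 57.8 CPM in GF and 22.0, 15.6 and 17.6 CPM in chd8-/- (−1.18, SE 0.22, adjusted p = 0.00714). tyms, for thymidylate synthase, was at 13.0, 8.44 and 13.4 CPM in CV, 15.2, 12.1 and 11.2 CPM in GF and 5.33, 6.00 and 4.52 CPM in chd8-/- (−1.15, SE 0.22, adjusted p = 0.00979). Neither rrm1 nor tyms overlapped between mutant and wild type. rrm2b (−0.43) and dut (0.19), whose enzyme keeps uracil out of DNA, did not pass.

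All 4 genes of chromatin copying fell. dnmt1, the maintenance DNA methyltransferase, was at 62.9, 46.0 and 86.9 CPM in CV, 83.6, 60.9 and 62.6 CPM in GF and 20.9, 21.3 and 23.3 CPM in chd8-/- (−1.60, SE 0.21, adjusted p = 0.00122). uhrf1, which brings Dnmt1 to newly copied DNA, was at 56.3, 59.7 and 79.6 CPM in CV, 77.2, 55.6 and 65.2 CPM in GF and 32.4, 30.2 and 31.1 CPM in chd8-/- (−1.08, SE 0.16, adjusted p = 0.00241). The lowest wild type library thus stood above the highest mutant one for both genes. chaf1b, of the complex that places histones on new DNA, was at 10.7, 8.07 and 12.5 CPM in CV, 12.8, 9.37 and 13.0 CPM in GF and 4.45, 3.91 and 4.96 CPM in chd8-/- (−1.25, SE 0.22, adjusted p = 0.00555). Its partner chaf1a fell by 1.13.

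**Figure D3:**
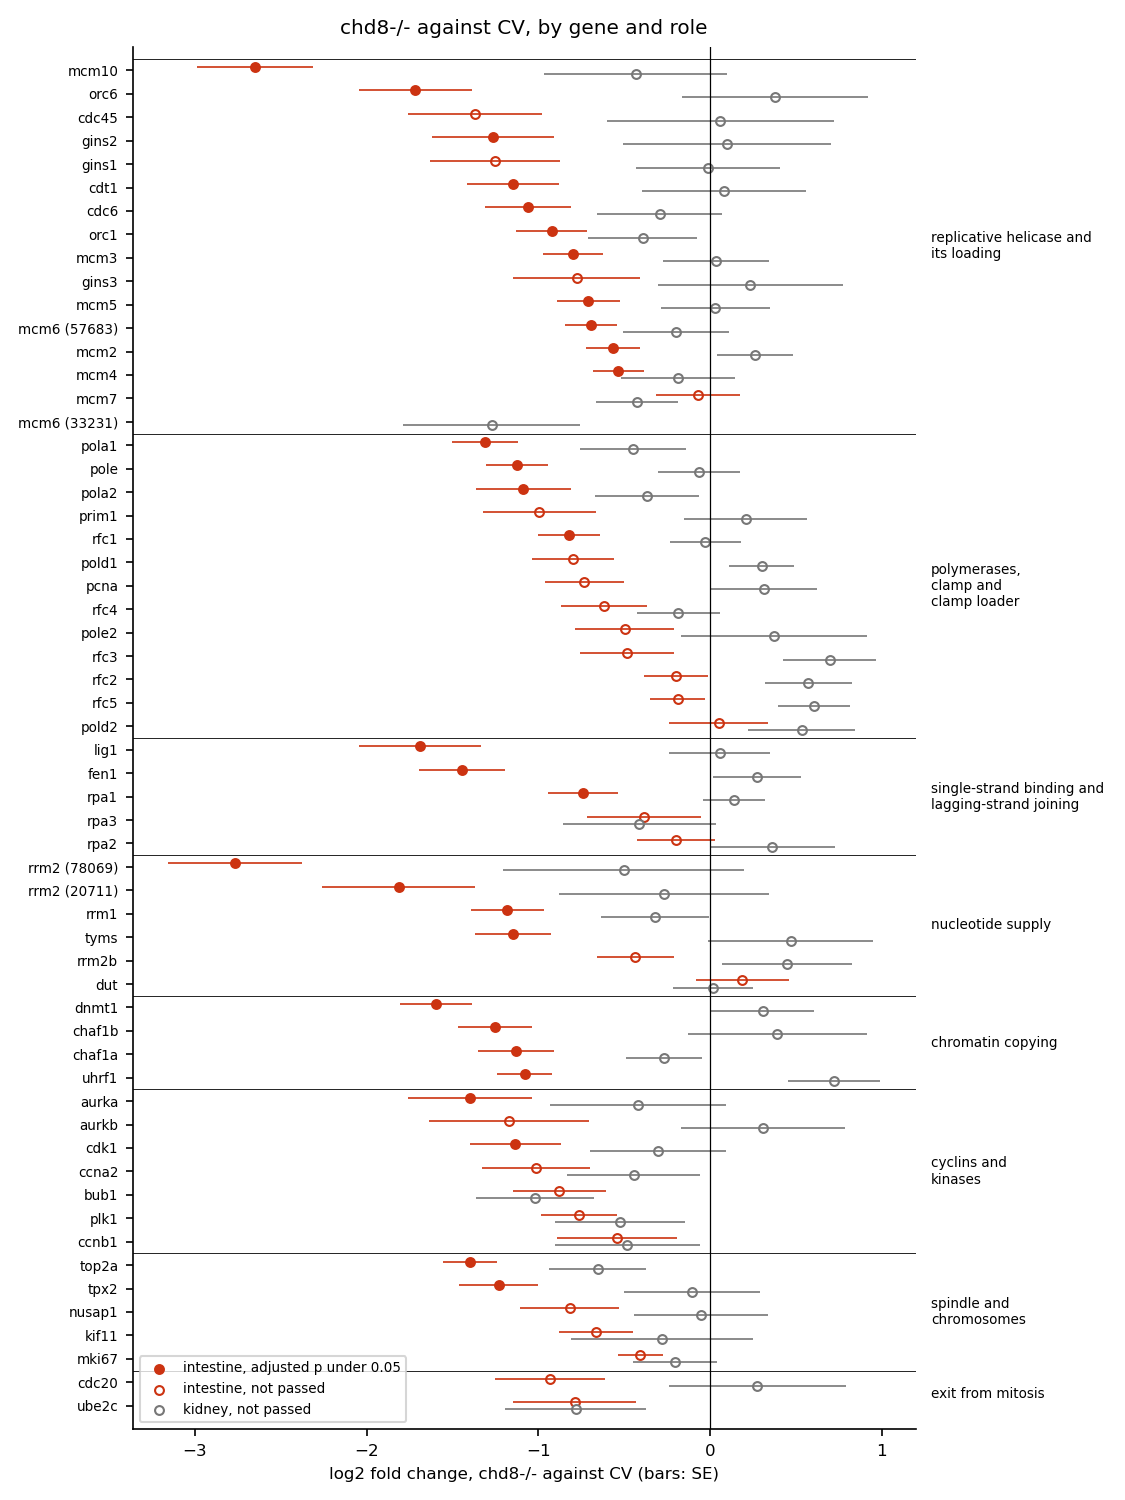
Log2 fold change of chd8-/- against CV for each gene in intestine (red) and kidney (grey), with SE as bars, ordered by role (right). Filled points passed an adjusted p of 0.05: 30 intestine points are filled, all left of 0, and no kidney point is, the kidney points lying on both sides of 0.

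Among the mitosis genes, top2a, the topoisomerase that untangles chromosomes, gave the smallest adjusted p of the 57. It was at 35.4, 26.8 and 32.9 CPM in CV, 45.6, 35.9 and 44.8 CPM in GF and 12.5, 11.7 and 12.3 CPM in chd8-/- (−1.40, SE 0.16, adjusted p = 0.000439). tpx2, a spindle assembly factor, was at 18.8, 10.5 and 14.0 CPM in CV, 18, 9.40 and 15.5 CPM in GF and 5.71, 5.61 and 7.34 CPM in chd8-/- (−1.23, SE 0.23, adjusted p = 0.00824). The other fallen genes were kinases. aurka, which tpx2 activates, was at 3.93, 1.98 and 2.04 CPM in CV, 3.22, 1.49 and 3.52 CPM in GF and 1.01, 0.880 and 1.16 CPM in chd8-/- (−1.40, SE 0.36, adjusted p = 0.036). cdk1, the kinase that starts mitosis, was at 11.4, 5.92 and 7.27 CPM in CV, 11.7, 6.98 and 11.7 CPM in GF and 3.44, 4.25 and 3.54 CPM in chd8-/- (−1.14, SE 0.27, adjusted p = 0.0237). All 4 of these genes were lower in each mutant library than in any wild type library.

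The other 10 mitosis genes had values between −1.17 (aurkb) and −0.41 (mki67) and did not pass, among them ccna2 (−1.01), cdc20 (−0.93), bub1 (−0.88), plk1 (−0.76) and ccnb1 (−0.54). Some of them varied widely among CV libraries. aurkb, the kinase of the chromosomal passenger complex, was at 12.8, 2.73 and 9.05 CPM in CV and 4.42, 2.67 and 3.98 CPM in chd8-/-, so CV replicate 2 lay within the mutant range. mki67, the usual marker of cycling cells, was at 50.7, 53.4 and 54.7 CPM in CV and 42.9, 38.7 and 39.4 CPM in chd8-/-, a small difference without overlap (SE 0.13, adjusted p = 0.0802). The genes for exit from mitosis, cdc20 and ube2c, gave 0 of 2.

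**Figure D4:**
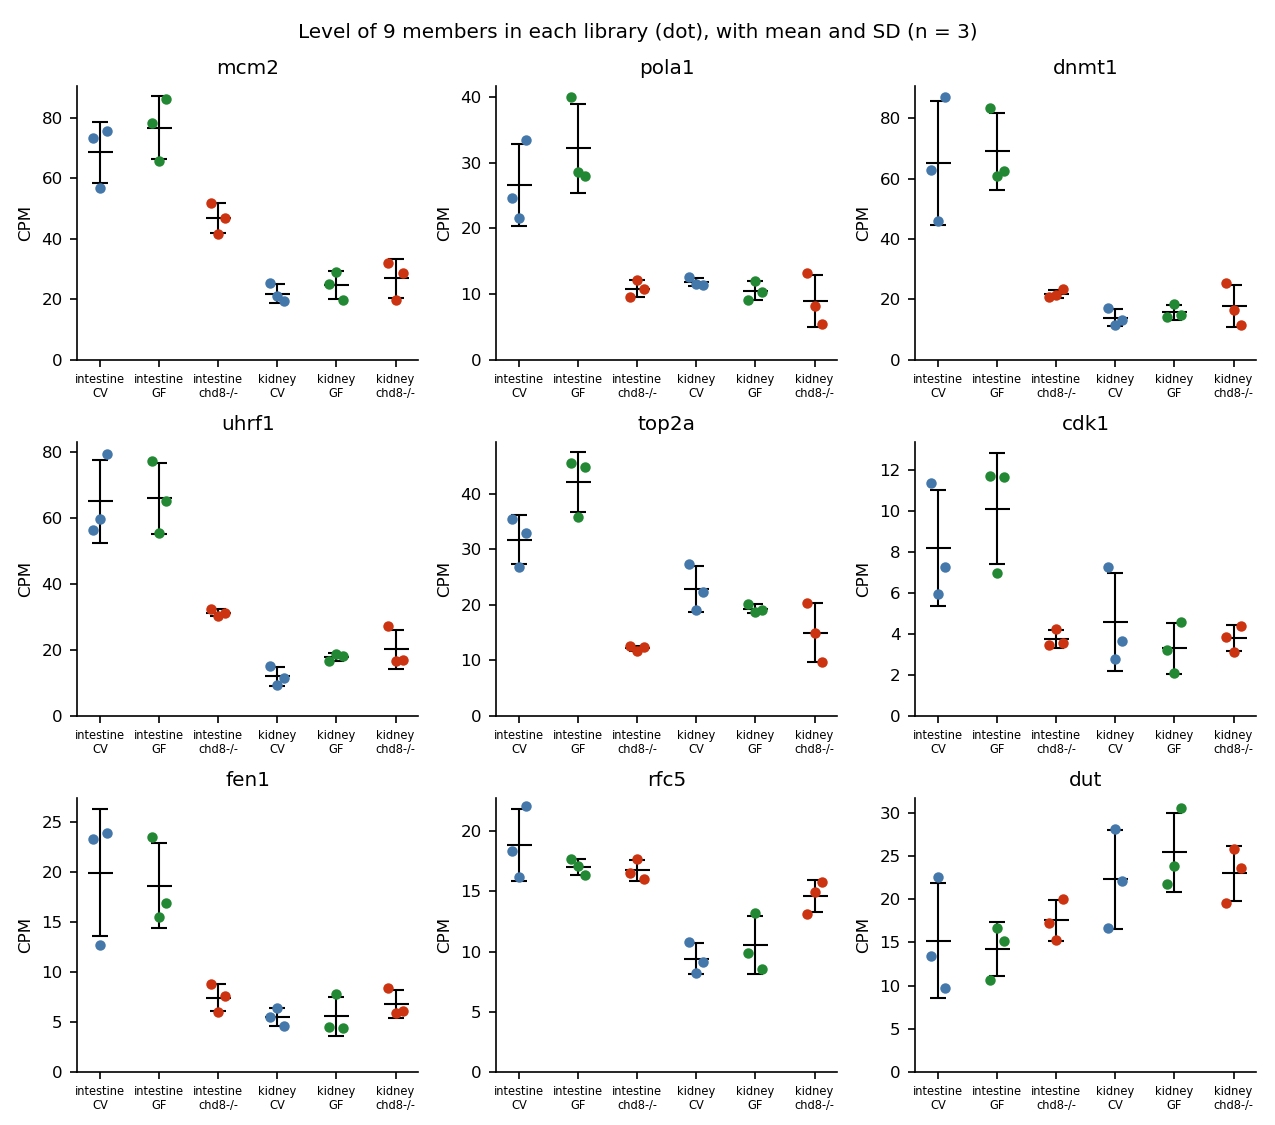
Level in CPM of 9 genes in each of the 18 libraries (dots, coloured by CV, GF and chd8-/-), with the mean and SD of each group (n = 3) and axes that start at 0. mcm2, pola1, dnmt1, uhrf1, top2a, cdk1 and fen1 are lower in chd8-/- intestine than in every wild type intestine library, while rfc5 and dut overlap.

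Other genes of the same processes, from lists outside the 58 that were also chosen with earlier results known, gave lower values in the same libraries. Over all genes tested 5.19% fell and 3.98% rose, with a median of −0.01. Of 50 other replication genes tested 20 fell and 0 rose, with a median of −0.83. The 5 largest changes were in mcm8 (−1.93), dtl (−1.83), slbp (−1.81), which processes histone messages, exo1 (−1.74) and fanci (−1.68). Of 77 other mitosis genes tested 27 fell and 0 rose, with a median of −0.93, led by the centromere gene cenpn (−2.19), the centriole gene stil (−1.89), pbk (−1.68), and the kinetochore genes ndc80 (−1.55) and nuf2 (−1.54).

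Of 23 regulators of cell cycle transcription 7 fell, 1 rose and 15 did not pass, with a median of −0.25. e2f8, a repressor that is itself switched on late in G1, was at 8.92, 8.31 and 12.4 CPM in CV, 18.5, 8.69 and 13.9 CPM in GF and 2.71, 2.49 and 2.24 CPM in chd8-/- (−2.01, SE 0.23, adjusted p = 0.000485). mybl2, the B-Myb gene that drives mitosis genes, fell by 1.82, e2f7 by 1.63 and e2f1 by 1.43. For the falling genes this compares with 5.19% of all genes tested, and 1 gene of 23 rising is about the 3.98% share over all genes. That gene was mych, of the Myc family, with 65.2, 106 and 35.9 CPM in CV, 67.1, 101 and 110 CPM in GF and 222, 196 and 184 CPM in chd8-/- (1.52, SE 0.32, adjusted p = 0.018). In the G1 list, with 20 genes tested, only the cyclin E genes ccne2 (−1.72) and ccne1 (−1.15) and the kinase gene wee1 (−0.88) fell. That list also held genes of entry into mitosis, of which wee1 is one. Summed over 14 p53 targets, the lowest chd8-/- intestine library held 1159 CPM and the highest wild type one 847 CPM. The most abundant was ccng1. The log2 fold change was above 0 for 11 of the 14, with a median of 0.27, against −0.01 over all genes tested. For 7 of them chd8-/- lay above CV without overlap, as for 3045 of all 20758 genes tested. The largest value, 1.67, belonged to cdkn1a, which is also in the G1 list, and did not pass. Of these 14 targets 1 rose, beside 3.98% of all genes tested. It was ccng1 (0.81, SE 0.16, adjusted p = 0.0117), from 330, 354 and 334 CPM in CV to 606, 614 and 588 CPM in chd8-/-, and 13 did not pass.

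Red blood cell markers were also lower in chd8-/- intestine as a sum. Within CV intestine, whether they followed the 58 genes depended on the measure. Their sum was lowest in replicate 2 (262 CPM), as was that of the 58 genes (902 CPM). Their centred mean of log2 levels was instead highest in replicate 2 (−0.06), where that of the 58 genes was lowest (0.26). Summed over 15 genes, the red blood cell markers stood at 262 to 280 CPM in CV, 326 to 363 CPM in GF and 166 to 181 CPM in chd8-/-. Of 13 tested, 5 were lower and 1 was higher, and hbaa1 was at 0 in every intestine library. Among the most abundant were the embryonic globin hbae3, at 77.5 to 95.1 CPM in chd8-/- against 138 to 181 CPM in CV, and 2 genes with the symbol slc4a1, the band 3 transporter. Of these ENSDARG00000024560 rose, from 12.1 to 16.2 CPM in CV to 29.3 to 42.9 CPM in chd8-/-, while ENSDARG00000012881 held 7.61 to 16.7 CPM in chd8-/- against 13.5 to 25.7 CPM in CV. Enterocyte markers summed to 42705 to 53286 CPM in chd8-/- against 34660 to 46365 CPM in CV intestine. Exocrine pancreas markers summed to 24152 to 36257 CPM in chd8-/- intestine, partly above the CV range. Other marker lists separated chd8-/- from CV intestine without overlap. Liver markers were lower (25052 to 31142 CPM against 32892 to 34145 CPM, 2 of 15 genes fell) but overlapped GF (25509 to 37882 CPM). Skeletal muscle markers were higher (17129 to 18144 CPM against 10754 to 15314 CPM, 0 of 22 genes passed) and also overlapped GF (14289 to 17229 CPM). Enteroendocrine markers were higher (96.9 to 108 CPM against 71.3 to 85.9 CPM, 1 of 8 genes rose), with GF at 61.0 to 87.5 CPM. Of all genes tested 5.19% fell and 3.98% rose. The part of these cells in the result was not tested.

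Against GF instead of CV intestine, 45 of 57 genes were lower in chd8-/-, 0 were higher and 12 did not pass, while 6.67% of all genes tested were lower. This comparison shares the chd8-/- libraries with the one above, and its columns come from 2 of the authors' tables. The count was 34 of 43 for replication and 11 of 14 for mitosis, and the median was −1.09, against −0.05 over all genes tested. Values of members were −3.31 for rrm2 (ENSDARG00000078069), −2.11 for mcm10, −1.68 for dnmt1, −1.02 for pcna and −0.77 for mcm7, which all passed here. top2a was at −1.81 (SE 0.14, adjusted p = 0.00012) and bub1 at −1.43 (SE 0.31, adjusted p = 0.0173). rfc2 (−0.07), rfc5 (−0.05) and pold2 (−0.24) did not pass. Without chd8-/- replicate 1, 2 or 3 the count was 29, 28 and 28. GF replicate 3 held markers of brain and retina, at 659 CPM over 23 genes against 98.0 to 134 CPM in the other intestine libraries, and the count without it was 46. Calls over all genes in the fits without single libraries are not given here.

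The comparison of GF with CV intestine asks what differed with germ-free rearing. The absence of microbes cannot be told apart here from the antibiotic medium, washes and sterile medium that only GF embryos received. No member passed in either tissue. In intestine edgeR, DESeq2 and voom called 0 of 57 genes, while over all genes edgeR called 0% and DESeq2 0.168%, and 2 had an unadjusted p under 0.05, against 5.96% of all genes tested. The median log2 difference was 0.16, against 0.01 over all genes tested, with 44 of 57 values above 0 and 13 of 14 among mitosis genes. top2a was higher in all 3 GF libraries (35.9 to 45.6 CPM) than in all 3 CV libraries (26.8 to 35.4 CPM), a log2 difference of 0.42 (SE 0.17, edgeR adjusted p = 0.803). The other gene with an unadjusted p under 0.05 was mcm7 (0.71, SE 0.30, adjusted p = 0.803), with 55.9, 66.8 and 93.9 CPM in GF. Groups did not overlap for 2 genes, top2a and pole2, against 11.1% of all genes tested.

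The next smallest p belonged to rrm2 (ENSDARG00000078069, 0.56, SE 0.27) and rrm1 (0.43, SE 0.24) in replication, and to bub1 (0.56, SE 0.29), a gene of the spindle checkpoint, and the spindle motor gene kif11 (0.45, SE 0.23) in mitosis. None of them passed (adjusted p = 0.803 to 0.81). The median rested on 1 library, since it was −0.02 without CV replicate 2, whose members were low, and 0.13 without GF replicate 3. Of 77 other mitosis genes and 50 other replication genes 0 passed, with medians of 0.21 and 0.11.

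In kidney, GF against CV gave 0 of 58 genes in edgeR, DESeq2 and voom and 0% of all genes in edgeR and 0.837% in DESeq2, with a median of 0.00, against 0.01 over all genes tested. Before adjustment 2 genes had a p under 0.05, against 8.79% of all genes tested. These were rrm2b (3.95, 3.37 and 4.85 CPM in CV and 6.68, 6.79 and 5.71 CPM in GF, log2 difference 0.64, SE 0.25, adjusted p = 0.559) and uhrf1 (15.1, 9.27 and 11.4 CPM in CV and 16.5, 18.9 and 18.2 CPM in GF, log2 difference 0.56, SE 0.22, adjusted p = 0.561). Groups did not overlap for 5 genes, against 15.3% of all genes tested, with rfc2, rrm2b and uhrf1 higher and rfc4 and pola2 lower in GF. Overlap was judged with the scaling of each comparison's own libraries. In the CPM values over 18 libraries the rfc2 ranges overlap slightly, with 7.42 CPM in CV replicate 3 and 7.38 CPM in GF replicate 3. The mitosis genes bub1 (−0.70, SE 0.38), top2a (−0.26, SE 0.19) and cdk1 (−0.48, SE 0.46) did not pass, and rfc2 was at 0.46 (SE 0.25). Without CV replicate 1 the median was 0.26 and cdk1 was at 0.039. Without CV replicate 1 and GF replicate 2, the GF library with the low chd8 level, uhrf1 passed (0.76, adjusted p = 0.0348). Both libraries held the highest member sums of their groups, so the choice was not independent of the values tested, and no conclusion is drawn from that call.

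In chd8-/- kidney no member passed against CV either, by edgeR, DESeq2 or voom, while over all genes edgeR called 0% and DESeq2 1.19%. The median was −0.02, against −0.01 over all genes tested, and 6 of 58 genes had an unadjusted p under 0.05, against 9% of all genes tested. Groups did not overlap for 8 genes, against 15.8% of all genes tested. Of these, rfc2, rfc3, rfc5, pold1, pold2 and uhrf1 were higher, and bub1 and mcm6 (ENSDARG00000033231) lower. Errors were larger in this comparison than in intestine, with a median SE of 0.35 against 0.25 over the members.

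rfc5, a clamp loader subunit, was at 10.8, 8.25 and 9.14 CPM in CV kidney and 13.1, 14.9 and 15.8 CPM in chd8-/- kidney (0.61, SE 0.21, adjusted p = 0.478). rfc3 was at 4.05, 3.15 and 2.85 CPM in CV and 5.52, 6.03 and 5.12 CPM in chd8-/- (0.70, SE 0.27, adjusted p = 0.52). Both genes were higher in every mutant library without passing. bub1 was at 9.56, 5.72 and 4.40 CPM in CV and 3.89, 3.20 and 2.87 CPM in chd8-/- (−1.02, SE 0.34, adjusted p = 0.476). top2a (−0.65, SE 0.28) and ube2c (−0.78, SE 0.41) gave adjusted p of 0.552 and 0.624. The mitosis genes had a median of −0.36 with 12 of 14 values below 0, and the replication genes a median of 0.06 with 26 of 44 above 0. Outside the 58 genes, 0 of 76 other mitosis genes and 0 of 50 other replication genes passed, with medians of −0.23 and −0.04.

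Replicate 1 stood apart in both kidney groups. Without CV replicate 1 and chd8-/- replicate 1, 5 genes passed, with rfc5 (0.81), rpa2 (0.96) and uhrf1 (0.69) higher and mcm7 (−0.79) and top2a (−0.76) lower. Those libraries held the highest member sums of their groups, so the choice used the values tested. Fewer libraries remained, and calls over all genes in that fit are not given here, so no conclusion is drawn from these calls. Red blood cell markers summed to 809 CPM in chd8-/- replicate 1 and to 261 and 350 CPM in the other chd8-/- kidney libraries, while CV replicate 1, with the high mitosis mean, held 471 CPM against 267 and 310 CPM. Other markers set CV replicate 1 apart from the other CV kidney libraries. Goblet and secretory cell markers stood at 964 CPM against 77.1 and 88.9 CPM, myeloid markers at 670 CPM against 273 and 276 CPM, and skin markers at 4279 CPM against 18716 and 22482 CPM. In chd8-/- kidney myeloid markers were highest in replicate 3, at 764 CPM. The part of these cells was not tested. Against GF kidney, 0 of 58 genes and 0% of all genes passed, and 0 members had an unadjusted p under 0.05, against 3.2% of all genes tested. This comparison includes GF kidney replicate 2, whose chd8 level (33.4 CPM) lay within the chd8-/- kidney range. Its result without that library is not given here.

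**Figure D5:**
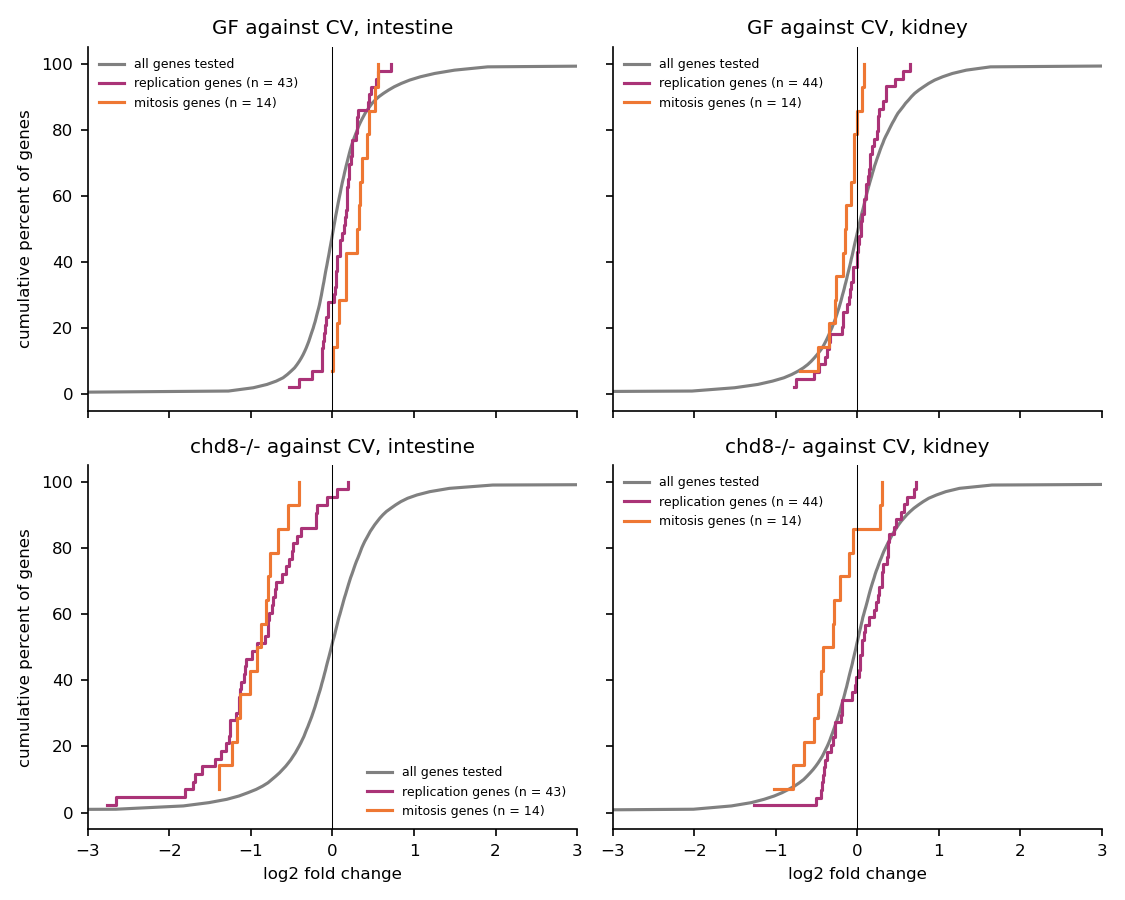
Cumulative percent of genes (vertical axis) at or below each log2 fold change (horizontal axis) for all genes tested (grey), replication genes (purple) and mitosis genes (orange), with 3 libraries per group. Both coloured curves lie left of the grey one in chd8-/- intestine, with medians of −0.92 and −0.91, while in chd8-/- kidney the medians are 0.06 and −0.36.

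Whether the chd8-/- difference itself differed between kidney and intestine was tested over 12 libraries with an interaction term. For 53 of 58 genes the kidney value minus the intestine value was above 0, with a median of 0.89, against 0.04 over all genes tested. One gene passed, uhrf1 (1.83, SE 0.32, adjusted p = 0.0452), while 0.153% of all genes tested did. Its value was −1.08 in intestine, and in kidney 0.72 (SE 0.27, adjusted p = 0.503), from 15.1, 9.27 and 11.4 CPM in CV to 27.1, 16.7 and 17.0 CPM in chd8-/-. An unadjusted p under 0.05 was found for 26 of the 58, against 9.89% of all genes tested. dnmt1 (1.93, SE 0.40, adjusted p = 0.0801), fen1 (1.74, SE 0.38, adjusted p = 0.103), pole (1.08, SE 0.29, adjusted p = 0.208) and orc6 (2.12, SE 0.58, adjusted p = 0.222) came next and were chosen after their values were seen. DESeq2 called these 4 and uhrf1, and 1.41% of all genes. Without 1 of the intestine libraries the adjusted p of uhrf1 was 0.0592 to 0.177, without CV kidney replicate 2 or 3 it was 0.0895 and 0.0743, and otherwise it stayed between 0.0196 and 0.0441. Tissue and age differ together here and cannot be told apart.

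Between CV tissues, 32 of 58 genes were lower in kidney at 7 days than in intestine at 5 days, 1 was higher and 25 did not pass. Of all genes tested 19.8% were lower, and the share that was higher is not given here. The median was −1.15, against 0.00 over all genes tested. Replication genes gave 31 of 44 lower and mitosis genes 1 of 14, tpx2 (−1.29, SE 0.38, adjusted p = 0.0253), with medians of −1.29 and −0.82. The difference between the classes was not tested. CV kidney replicate 1 had a mitosis mean of 0.40, against −0.64 to −0.60 in the other CV kidney libraries. The largest decreases were in orc6 (−2.84), uhrf1 (−2.44), lig1 (−2.32), dnmt1 (−2.21), tyms (−2.17) and chaf1b (−2.11). uhrf1 held 56.3, 59.7 and 79.6 CPM in intestine and 15.1, 9.27 and 11.4 CPM in kidney, far apart in every library. The gene that rose was mcm6 (ENSDARG00000033231), at 0, 0.202 and 0.453 CPM in intestine and 1.15, 1.1 and 1.86 CPM in kidney (2.57, SE 0.85, adjusted p = 0.0378). The other mcm6 gene, ENSDARG00000057683, went from 56.0, 45.1 and 62.1 CPM to 21.0, 19.1 and 17.5 CPM (−1.49, SE 0.20, adjusted p = 0.000338). The muscle and pancreas markers given above were higher in the same CV kidney libraries, and their part in these differences was not tested.

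rfc3, rfc4, pold2, mcm7 and dut did not pass between the tissues. dut held 13.4, 22.6 and 9.66 CPM in CV intestine and 16.7, 28.2 and 22.1 CPM in CV kidney, overlapping ranges, and passed in no comparison made here. Nor did rfc2 or rfc5 pass in either contrast of genotype or rearing, although both were lower in CV kidney than in CV intestine (−0.98 and −0.99).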

How the data were processed

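RNA-seq read counts, as deposited by the authors, fill 4 tables of 32520 Ensembl genes. Named in the submitters' processing notes are STAR 2.7.9a, featureCounts, Subread 2.0.1, FastQC 0.11.9, Trim Galore 0.6.7 and the build GRCz11. For strand setting, annotation release and reads shared by several genes, the value is not given in the sources used here. A gene name table gave symbols for 29201 genes. The members and lists were chosen with earlier results of these data known, and no p-value is adjusted over a list alone.

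Each comparison used its own 6 libraries (12 for the difference between tissues) in edgeR 4.0.16 (R 4.3.3): TMM factors, filterByExpr, robust quasi-likelihood F-test, Benjamini-Hochberg adjustment over all genes tested, called at an adjusted p under 0.05. Each SE was computed as the size of the log2 change over the root of its F statistic. Alternatives were DESeq2 1.42.0, voom (limma 3.58.1), library size only, other filters, a replicate block, all 3 groups of a tissue in 1 fit and leaving out libraries. The steps were tested on simulated data. Named members are chd8, the called genes with the largest fold change (up to 12 for replication and 8 for mitosis) or, with fewer than 6 calls, the 3 of each class with the smallest p; of the other lists, up to 5 called genes or, for cell types, the 2 most abundant. Further members were named after their values were seen, to account for all 58. Of the other lists, cdkn1a was also named after its value was seen. CV columns agreed exactly between the kidney tables, and those of the intestine tables were the same 3 libraries renumbered, with equal counts in 72.8% to 80.9% of genes. No pair of replicates was a repeat of one library (lowest chi-square per degree of freedom 16.5). Precision is limited by 3 libraries per group. Sequences are not printed.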

Additional observations from a re-analysis of the deposited data

Results flagged for a closer look

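In the main fit the chd8-/- difference of uhrf1 passed the test of a difference between the 2 tissues. The kidney value minus the intestine value was 1.83 on the log2 scale (edgeR adjusted p = 0.0452), with a lower level in 3 of 3 mutant libraries of the intestine and a higher one in 3 of 3 of the kidney. The adjusted p was 0.0588 with library size only, 0.0977 with a replicate block, and 0.0196 to 0.177 when 1 library was left out. The call therefore did not hold in every setting, and the kidney value alone did not pass against CV. In kidney, GF libraries held 16.5 to 18.9 CPM of uhrf1, also above CV (9.27 to 15.1 CPM). They overlapped the chd8-/- range of 16.7 to 27.1 CPM. Groups of 3 libraries are too small for a test of single outlying samples.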

How the results depend on the processing

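Of 454 recomputed values for single named genes, 414 kept their direction and their side of the threshold, 34 no longer passed, 4 newly passed and 2 changed direction. Those 2 were cdk1 in GF against CV kidney, which ran from −0.80 to 0.039 as single libraries were left out (0.039 without CV replicate 1) and was 0.30 without CV replicate 1 and GF replicate 2. Only named genes of chd8-/- against CV intestine had passed in the main fit, so only these could lose a call. The replication genes among them were chosen for the largest fold changes. Of all 30 members called there, 9 stayed lower in all 13 alternatives. For chd8-/- against CV intestine, 40 members were called with library size only, which also moved the median of all genes to −0.14. The count was 40 in DESeq2, 24 in voom, 32 without a filter and 28 with the stricter filter. It was 11 to 42 when 1 library was left out. Over all 20758 genes tested, DESeq2 called 1493 lower and 1255 higher, and voom 946 lower and 886 higher. For the other settings in this section, calls over all genes are not given. Whether those changes are particular to the members cannot be told. Against GF intestine leaving out 1 library gave 28 to 46. In kidney, leaving out the 2 libraries with the highest member sums of their groups gave 1 call for GF and 5 for chd8-/- against CV. That choice used the values tested. The GF median ran from −0.10 to 0.26 without single libraries. For the difference between tissues, 0 members passed with library size only, 5 in DESeq2 and 0 to 2 when 1 library was left out, among them fen1 (without CV intestine replicate 2, adjusted p = 0.0432) and dnmt1 (without chd8-/- kidney replicate 3, 0.0307). The causes were not tested. Between CV tissues the calls ran from 23 to 44. Same-numbered libraries showed no pairing, with correlations from −0.19 to 0.01. The CV intestine libraries are numbered differently in the authors' tables, so this check cannot tell whether libraries were paired in another order. The replicate block used the same numbers. With a replicate block the counts were 21 against CV and 42 against GF intestine, 0 for the difference between tissues and 38 between CV tissues. Genes near 1 CPM, such as mcm6 (ENSDARG00000033231), rest on few reads.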
